A study of Mus musculus with 32 samples.

Results

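The Fc gamma receptor genes Fcgr1, Fcgr3, Fcgr4 and Fcgr2b and the signalling chain gene Fcer1g were followed through 32 RNA-seq libraries of E0771, a mammary carcinoma cell line of the mouse. They were taken by symbol, and all 5 had a row in each of the 4 deposited tables, among 22609 genes each for cultured cells and tumours in Rag1-/- hosts and 25277 each for the C57BL/6 tables. The series' title and design text ask what the collagen receptor DDR1 does in mammary tumour growth.

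In culture, 3 libraries of DDR1 WT cells (parental, titled EV and titled Ctrl) stood against 2 of the DDR1 KO derivatives 3-6 and 3-7. In Rag1-/- mice, whose B and T cells do not mature, there were 5 tumours from DDR1 WT and 5 from DDR1 KO cells. A further 4 DDR1 WT and 5 DDR1 KO tumours came from C57BL/6 hosts at day 4 after tumours were moved there from Rag1-/- hosts. At day 6, 4 tumours of C57BL/6 hosts were treated with IgG and 4 with hDDR1 ECD antibody, so every day 6 host had received an antibody, and no Ddr1 genotype is labelled. The sources used here give no animal age, antibody isotype or pooling of animals. Nor do they say which samples came from separate animals or cultures, so each p-value reflects the sample-to-sample spread, which may be technical.

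Fc gamma receptors bind the constant part of IgG and pass the signal of antibody-coated targets to macrophages, neutrophils and other leukocytes. In the mouse, Fcgr1 encodes the high-affinity receptor, Fcgr3 a low-affinity receptor and Fcgr4 a receptor that favours IgG2a and IgG2b. All of them need the gamma chain, encoded by Fcer1g, which carries the activating motif that recruits the kinase Syk. Fcgr2b encodes the inhibitory receptor, which recruits the phosphatase SHIP1, the product of Inpp5d. Interferon gamma is known to raise Fcgr1 and Fcgr4.

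On GRCm38, Fcgr1 lies on the minus strand of chr3:96282909-96293969. The other 4 lie on chromosome 1, Fcgr2b at chr1:170958617-170976547 (minus), Fcgr4 at chr1:171018920-171029761 (plus), Fcgr3 at chr1:171051174-171064935 (minus) and Fcer1g at chr1:171229572-171234365 (minus). Fcgr2b overlaps the antisense gene Gm38204. The sources used here do not say whether counting used strand, so reads of this pair cannot be told apart. The external parts of the Fcgr2b and Fcgr3 proteins are known to be much alike, and the transcripts shared an identical run of 129 bases. It covered bases 402 to 530 of an Fcgr2b transcript and 313 to 441 of an Fcgr3 transcript in GENCODE, inside both coding sequences. The run is shown because a read that falls wholly inside it cannot be given to either gene:
Fcgr2b and Fcgr3 shared run: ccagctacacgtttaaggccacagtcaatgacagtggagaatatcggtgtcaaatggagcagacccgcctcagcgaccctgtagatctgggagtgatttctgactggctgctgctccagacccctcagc
Of the 50-base windows in its RefSeq-paired transcripts, 12.8% in Fcgr3 and 7.33% in Fcgr2b were shared with another gene, and 0 in Fcgr1, Fcgr4 or Fcer1g. Counts of Fcgr3 and Fcgr2b are therefore less certain than those of the other 3 genes.

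Promoters of all 5 genes were searched for short patterns, and those of the activating receptors, which held a match, are shown. RefSeq windows on GRCm38.p6 held 250 bases before to 50 after each start. They were searched on both strands for GAGGAA, the core bound by the myeloid factor PU.1, and for TTCNNNGAA, the pattern of STAT factors, whose matches did not overlap. GAGGAA was found in 28.3% of 27025 promoters and TTCNNNGAA in 8.47%. Capitals mark the matches, with GAGGAA appearing as its reverse complement:
Fcgr1, chr3:96293920-96294219, minus strand: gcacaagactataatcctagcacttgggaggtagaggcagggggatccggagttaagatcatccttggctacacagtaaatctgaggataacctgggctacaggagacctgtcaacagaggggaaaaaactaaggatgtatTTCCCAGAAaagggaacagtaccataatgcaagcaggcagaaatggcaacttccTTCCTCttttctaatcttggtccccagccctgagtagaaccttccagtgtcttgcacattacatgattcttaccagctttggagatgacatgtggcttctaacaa
Fcgr3, chr1:171059354-171059653, minus strand: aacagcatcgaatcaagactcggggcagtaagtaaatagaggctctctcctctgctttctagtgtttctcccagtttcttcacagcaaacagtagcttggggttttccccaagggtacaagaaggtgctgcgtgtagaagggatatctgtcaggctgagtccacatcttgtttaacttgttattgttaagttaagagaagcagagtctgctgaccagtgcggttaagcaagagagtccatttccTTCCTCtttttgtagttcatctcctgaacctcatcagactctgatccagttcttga
Fcgr4, chr1:171018676-171018975, plus strand: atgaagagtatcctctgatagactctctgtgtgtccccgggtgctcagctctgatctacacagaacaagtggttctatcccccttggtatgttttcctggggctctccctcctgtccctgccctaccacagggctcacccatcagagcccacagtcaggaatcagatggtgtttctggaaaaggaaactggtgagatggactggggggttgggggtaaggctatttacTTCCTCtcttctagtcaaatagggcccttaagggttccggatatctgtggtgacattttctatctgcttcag
The GAGGAA match began at position -55 from the start of Fcgr1, -6 for Fcgr3 and -22 for Fcgr4, and the Fcgr1 window alone of the 5 genes held TTCNNNGAA, at -109. A second RefSeq start of Fcgr3 held the same match at -15. The windows of Fcer1g and Fcgr2b held neither run of letters. A match describes the letters and is not a binding site.

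Levels are given as RPM, the reads recovered from the deposited values scaled to a common library size of 1000000 reads. The culture libraries held 29270919 to 37425032 reads and the Rag1-/- tumours 18967300 to 25516204. Day 4 libraries held 20148955 to 28600639 reads and day 6 libraries 20220028 to 39732635. The knockout target Ddr1 checked the labels, at 132 to 213 RPM in DDR1 WT libraries and 19.0 to 49.7 in DDR1 KO libraries. At day 6 it stood at 15.9 to 28.5 RPM under either treatment. The tables were normalized separately and differ together in host, day, treatment, gene rows and library set, so differences between them are described without a test. Day 4 and day 6 tumours share the C57BL/6 host. Only day 6 hosts are labelled as given IgG or antibody, and the Ddr1 genotype of their tumours is not labelled. Summed markers of macrophages and monocytes came to 24.4 to 64.5 RPM for cultured cells and 888 to 1340 RPM for Rag1-/- tumours. Day 4 tumours had 1873 to 5356 RPM of them and day 6 tumours 2028 to 9599 RPM. In bulk tumours, fewer cells of a type and less RNA per cell cannot be told apart.

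Cultured E0771 cells gave almost no reads from these genes, with or without Ddr1. Fcgr1 had 0 reads in each of the 3 DDR1 WT libraries, which allows up to 3 reads, or 0.0802 to 0.102 RPM, and 0 and 1 reads in the DDR1 KO libraries. Fcgr3 had 1, 2 and 3 reads in DDR1 WT libraries and 0 in both DDR1 KO libraries. These limits and counts cover counting error only. Fcer1g gave 5, 4 and 1 reads against 2 and 2, and Fcgr2b gave 8, 4 and 2 against 0 and 2. Fcgr4 gave the most reads in culture, with 0.478, 0.299 and 0.347 RPM in DDR1 WT and 0.795 and 0.358 RPM in DDR1 KO libraries.

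Tumours gave reads of all 5 genes in every library. In Rag1-/- hosts Fcer1g stood at 90.5, 92.8, 71.0, 91.5 and 84.3 RPM in DDR1 WT tumours and at 69.0, 72.9, 108, 78.8 and 90.1 RPM in DDR1 KO tumours. At day 4 its values were 289, 116, 154 and 155 RPM with DDR1 WT and 209, 303, 105, 286 and 178 RPM with DDR1 KO cells. Day 6 tumours gave 210, 544, 318 and 448 RPM with IgG and 195, 358, 407 and 1043 RPM with the antibody. The ranges of the compared groups overlapped in each tumour table. All but 1 of the C57BL/6 libraries, at 105 RPM, lay above the Rag1-/- range, and the day 6 antibody group spread most widely.

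Among the activating receptors, Fcgr4 followed another order across the tumour tables. It stood at 39.4, 33.3, 25.5, 25.3 and 30.8 RPM in DDR1 WT and at 27.6, 26.5, 40.8, 29.3 and 36.8 RPM in DDR1 KO tumours of Rag1-/- hosts. The day 4 tumours held 49.96, 18.2, 20.1 and 27.5 RPM with DDR1 WT and 31.7, 38.6, 13.3, 46.3 and 26.1 RPM with DDR1 KO cells. At day 6 there were 90.8, 290.4, 160.1 and 247 RPM with IgG and 79.3, 141, 169 and 476 RPM with the antibody. The day 4 libraries thus spanned the Rag1-/- range, and all 8 day 6 libraries lay above both.

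Fcgr3 stood at 31.4 to 42.0 RPM in DDR1 WT and 31.6 to 54.6 in DDR1 KO tumours of Rag1-/- hosts. Its day 4 ranges were 69.4 to 149 RPM and 67.7 to 180 RPM, and its day 6 ranges 118 to 199 RPM with IgG and 90.3 to 383 RPM with the antibody. Every C57BL/6 library was therefore above every Rag1-/- library for this receptor, in contrast to Fcgr4. Fcgr1 ranged from 36.5 to 70.3 RPM over the 10 Rag1-/- libraries, 49.5 to 162 RPM at day 4 and 88.9 to 273 RPM at day 6. Fcgr2b, the inhibitory receptor, ranged over 53.8 to 85.2 RPM, 63.5 to 184 RPM and 98.6 to 275 RPM in the same order.

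**Figure D1:**
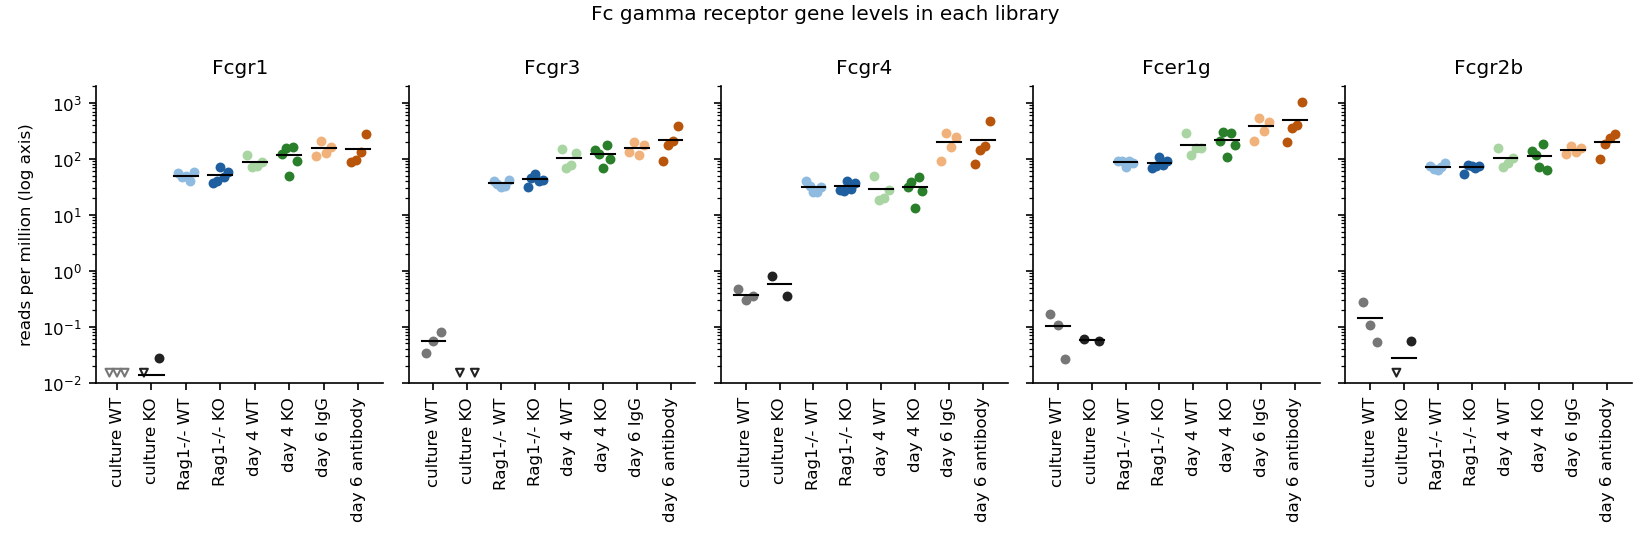
RPM (log axis) of the 5 genes in each library of the 8 groups, with a bar at each group mean and open triangles for libraries with 0 reads. Culture libraries sit below 1 RPM, and the day 4 libraries of Fcgr4, from 13.3 to 49.96 RPM, span its Rag1-/- range.

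Per kilobase of exon the genes can be ranked within a tumour table. Fcer1g led in each, with 102 to 160 RPM per kb in Rag1-/- tumours, 156 to 449 in day 4 tumours and 290.0 to 1548 in day 6 tumours, and no other gene's range reached its own before day 6. Fcgr3 came next in Rag1-/- hosts, at 23.3 to 40.5 RPM per kb, with Fcgr4 at 20.2 to 32.4, Fcgr1 at 14.1 to 27.1 and Fcgr2b at 15.2 to 24.1. The ranges of these 4 overlapped, so their order there was not separated beyond the spread. At day 4 Fcgr3 stood at 50.3 to 134 RPM per kb and Fcgr4 at 10.6 to 39.8, without overlap. Fcgr1 and Fcgr2b lay between them in median and overlapped both. At day 6 Fcgr4 reached 63.1 to 379 RPM per kb, Fcgr3 67.0 to 284, Fcgr1 34.3 to 106 and Fcgr2b 27.8 to 77.7. The rank of Fcgr2b is uncertain, since its paired transcripts cover 3544 exon bases together while the shorter has 1462.

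The balance between the receptors was compared inside each library, where depth and normalization cancel. The ratio of Fcgr4 to Fcgr3 per kb was 0.787 to 1.07 in DDR1 WT and 0.631 to 0.937 in DDR1 KO tumours of Rag1-/- hosts. At day 4 it was 0.233 to 0.359 with DDR1 WT and 0.211 to 0.346 with DDR1 KO cells. At day 6 it was 0.741 to 1.56 with IgG and 0.865 to 1.33 with the antibody. All 9 day 4 libraries lay below all 18 other tumour libraries, whatever the Ddr1 genotype. No ratio of this pair separated the groups within a tumour table. Summed neutrophil markers were 94.7 to 622 RPM at day 4, against 14.2 to 18.8 in Rag1-/- hosts and 14.2 to 57.0 at day 6. Summed interferon gamma response genes were 600.1 to 1090 RPM at day 4, 517 to 805 in Rag1-/- hosts and 869 to 3104 at day 6. Cultured cells, without a host, had 533 to 948 RPM of these genes. The part of either sum in this ratio was not tested.

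The activating receptors together stood at 2.95 to 4.71 times Fcgr2b per kb in Rag1-/- hosts, 4.04 to 7.18 times at day 4 and 5.04 to 9.90 times at day 6. The Rag1-/- and day 4 ranges overlapped, as did the day 4 and day 6 ranges. Fcer1g stood at 1.46 to 2.50 times the sum of the activating receptors in all 27 tumour libraries, while its own level ran from 69.0 to 1043 RPM. Of 18 ratio comparisons, 6 ratios in 3 tumour tables, the groups failed to overlap in 1. Fcgr3 over Fcgr2b in Rag1-/- hosts was 1.20 to 1.41 with DDR1 WT and 1.47 to 1.91 with DDR1 KO cells. This ratio was picked after its values were seen, was not tested, and concerns the pair that share sequence.

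**Figure D2:**
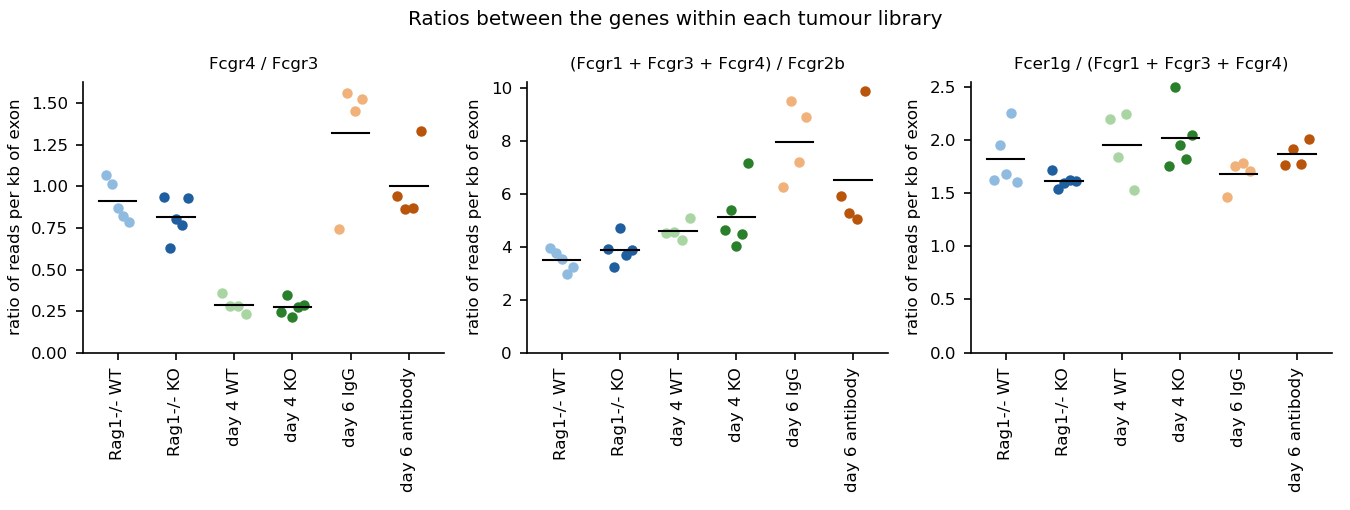
Ratios of reads per kb of exon within each tumour library, by group, with a bar at each group mean. The Fcgr4 to Fcgr3 ratio of the 9 day 4 libraries, 0.211 to 0.359, lies below that of all other libraries, and Fcer1g over the activating receptors stays between 1.46 and 2.50.

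In culture Fcgr4 alone could be tested between DDR1 KO and DDR1 WT cells, since the other 4 genes fell under a mean normalized count of 10. Differences were tested with limma on log2(normalized count + 1), which understates changes of weak genes, and a gene was called at a Benjamini-Hochberg adjusted p under 0.05 over all genes of the table. The difference for Fcgr4, DDR1 KO minus DDR1 WT, was 0.53 (SE 0.57, limma adjusted p = 0.672), with a 95% interval from -0.82 to 1.88. Thus 0 of 1 gene tested was called, while 0.327% of 11911 genes were. It had no unadjusted p under 0.05 either, a mark passed by 18.8% of genes, and its groups overlapped, unlike those of 36.2% of genes. edgeR, which called 0.21% of genes, did not call it, and DESeq2, which called 8.89%, gave it no adjusted p.

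In Rag1-/- hosts, the differences between DDR1 KO and DDR1 WT tumours lay between -0.09 and 0.19 for the 5 genes, with SE of 0.10 to 0.15 on the log2 scale. None of the 5 was called, while 22.7% of 12795 genes were, and none had an unadjusted p under 0.05, as 36.1% of genes did. Fcgr3 differed most, by 0.19 (SE 0.12, limma adjusted p = 0.245) with an interval from -0.05 to 0.44. Its normalized count was 845, 752, 678, 720 and 883 in DDR1 WT and 666, 942, 1124, 859 and 889 in DDR1 KO tumours, and DDR1 KO replicate 1 was the lowest of the 10. Without that library the difference was 0.30 and Fcgr3 was called (limma adjusted p = 0.0439, against up to 0.475 over the other settings), the single call that any setting gave to any of the 5 genes. Fcgr1 differed by -0.05 (interval -0.37 to 0.26) and Fcgr4 by 0.02 (-0.26 to 0.31). The interval of Fcer1g ran from -0.31 to 0.14 and that of Fcgr2b from -0.28 to 0.13. On recovered reads edgeR and DESeq2 also called 0 of 5, against 22.7% and 24.9% of genes, and the groups overlapped for all 5, unlike those of 15% of genes.

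At day 4 in C57BL/6 hosts all 5 genes had differences above 0 and wide intervals. None was called, while 0.0354% of 14105 genes were, and none had an unadjusted p under 0.05, as 15% of genes did. The largest, in Fcgr1, was 0.26 (SE 0.31, limma adjusted p = 0.729) with an interval from -0.43 to 0.94. Its normalized count was 2673, 1701, 1832 and 2050 in DDR1 WT tumours and 2610.1, 3421, 1162, 3726 and 2177 in DDR1 KO tumours. The DDR1 KO values lay both above and below the whole DDR1 WT range. Fcer1g differed by 0.21 (interval -0.51 to 0.93), Fcgr3 by 0.14 (-0.51 to 0.79), Fcgr4 by 0.05 (-0.78 to 0.88) and Fcgr2b by 0.02 (-0.67 to 0.72). In these tumours the 14 macrophage and monocyte markers had a median difference of 0.40 with 0 called, against 0.00277 over all genes. edgeR called 0 of 5 and 0.0284% of genes, and DESeq2 0 of 5 and 4.88%. The groups overlapped for all 5, unlike those of 5.76% of genes.

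The knockout effect was then compared between the hosts, as day 4 minus Rag1-/-, in 1 limma model over symbols that both tables share. None of the 5 was called, while 4.14% of 12234 genes were. The difference of effects was 0.31 for Fcgr1 (interval -0.44 to 1.06) and 0.29 for Fcer1g (-0.43 to 1.02). It was 0.10 for Fcgr2b (-0.60 to 0.80), 0.03 for Fcgr4 (-0.82 to 0.88) and -0.05 for Fcgr3 (-0.73 to 0.62).

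Day 6 compared tumours under the hDDR1 ECD antibody with those under IgG. None of the 5 genes was called, as was none of the 14155 genes tested (0%), and none had an unadjusted p under 0.05, as 8.6% of genes did. edgeR called 0 of 5 and 0% of genes, and DESeq2 called 0 of 5 and 1.17% of genes. The groups overlapped for all 5 genes, unlike those of 3.9% of genes. Fcgr2b had the largest difference, 0.38 (SE 0.29, limma adjusted p = 0.582), with an interval from -0.26 to 1.03. Its normalized count was 3637, 5195, 3873 and 4464 with IgG and 2948, 5700, 6815 and 8259 with the antibody, so antibody replicate 1 lay below every IgG tumour and the other 3 above them all. Fcgr3 differed by 0.30 (interval -0.55 to 1.16) and Fcer1g by 0.21 (-0.86 to 1.28). Fcgr4 differed by -0.06 (-1.26 to 1.14) and Fcgr1 by -0.17 (-0.96 to 0.61). Each interval held a rise as well as a fall, and those of Fcgr4 and Fcer1g were the widest among the 5 genes in tumours.

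Single libraries stood at the ends of these ranges. In the antibody group, replicate 4 was the highest and replicate 1 the lowest for each of the 5 genes, with Fcer1g at 1043 and 195 RPM. The same 2 libraries held 9599 and 2402 RPM of summed macrophage and monocyte markers, the group's highest and lowest. The 6 skeletal muscle markers were all lower with the antibody, at an unadjusted p under 0.05 for 6, against 8.6% of all genes, and with 0 called. They summed to 127 to 5984 RPM with IgG and 5.44 to 192 RPM with the antibody. The 5 epithelial markers were above 0 in difference, 3 of them at an unadjusted p under 0.05, against the same 8.6%, and 0 called. At day 4, DDR1 KO minus DDR1 WT, 4 of these 5 were above 0 as well. There 4 had an unadjusted p under 0.05, against 15% of all genes, with 0 called. The part of these markers in the receptor values was not tested.

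**Figure D3:**
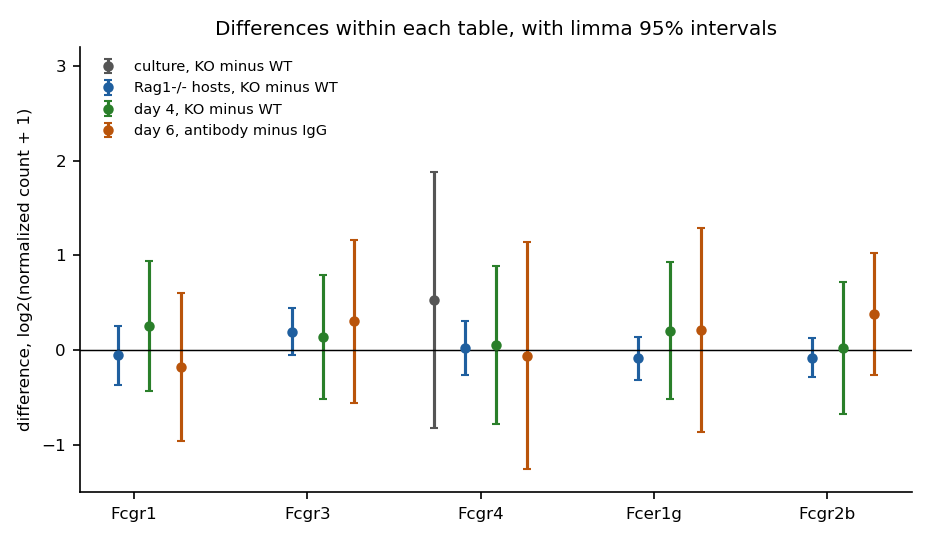
Differences between groups on the log2(normalized count + 1) scale for each gene, with 95% limma intervals, coloured by comparison. Every interval includes 0, and for each gene the interval is narrowest in Rag1-/- hosts, where Fcgr3 stands at 0.19.

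Within groups the 5 genes varied more than most genes did. In all 30 pairs of gene and tumour group their SD on the log2 scale exceeded the median gene's, and between 54.3% and 91.8% of tested genes had a smaller SD. Fcgr4 with the antibody varied most, with an SD of 1.08 against a median of 0.34. The genes also varied together with the macrophage and monocyte markers. After subtracting group means, each gene was compared with the mean log2 level of the 14 markers over 27 tumour libraries. These libraries share depth and composition between the quantities compared, and the within-group shuffles below number 100000.

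Fcgr3 followed the markers most closely (Pearson r = 0.93, Spearman rho = 0.93), with a permutation p of 1e-05, the smallest that the shuffles can give, for each. Fcgr1 had r = 0.90 and rho = 0.85, Fcgr4 r = 0.90 and rho = 0.85, Fcgr2b r = 0.89 and rho = 0.90, and Fcer1g r = 0.88 and rho = 0.83. Their permutation p lay between 1e-05 and 5e-05, and over these 5 relations the Benjamini-Hochberg adjusted permutation p was at most 5e-05. The shuffles ask only whether a gene and the markers vary independently within groups, so they show nothing particular to these receptors. Without the 2 libraries farthest out in the markers, DDR1 KO replicate 3 of day 4 and antibody replicate 4 of day 6, r was 0.84 to 0.91. Within Rag1-/- hosts alone r fell to 0.49 for Fcgr4 and 0.60 for Fcer1g, against 0.69 to 0.89 for the other 3. Subtracting the marker mean lowered the SD of Fcgr3 from 0.43 to 0.15 and that of Fcgr4 from 0.58 to 0.28. Relative to the markers, the groups of each tumour table still overlapped for all 5 genes. At day 4 the DDR1 KO minus DDR1 WT difference was then below 0 for all 5 genes. It ran from -0.12 in Fcgr1 to -0.35 in Fcgr2b and was not tested.

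**Figure D4:**
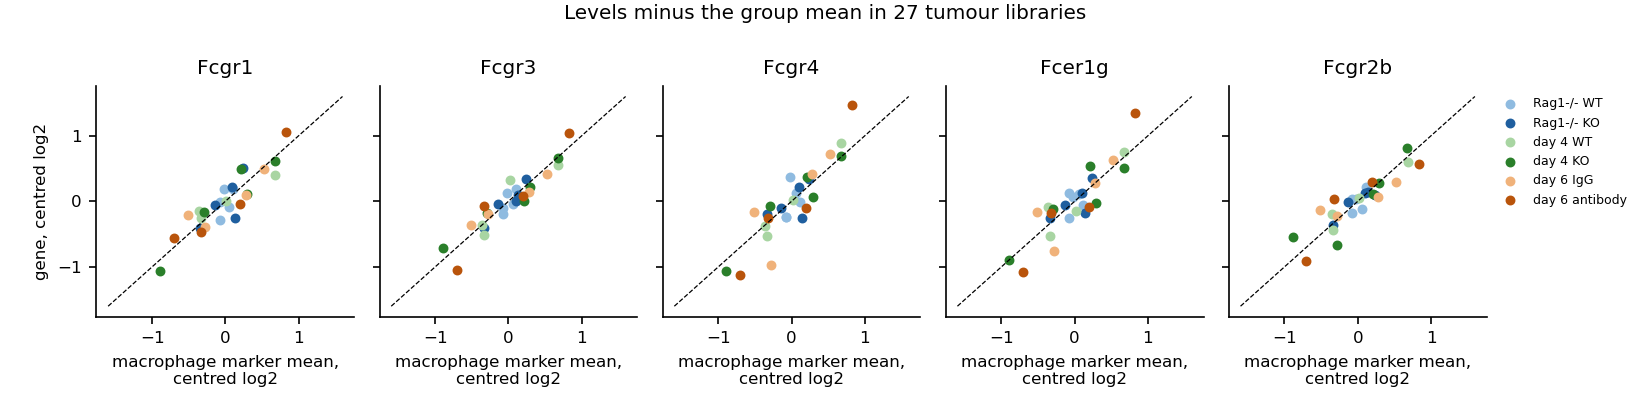
Log2 level of each gene against the mean log2 level of 14 macrophage and monocyte markers in 27 tumour libraries, each minus its group mean, coloured by group, with a dashed line of equality. Fcgr3 lies closest to the line (r = 0.93), and antibody replicate 4 lies far to the upper right in Fcgr4 and Fcer1g.

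Between members, Fcgr4 and Fcer1g rose and fell together most closely over all 27 tumour libraries (Pearson r = 0.97, Spearman rho = 0.92, permutation p = 1e-05 for each). Without the 2 libraries farthest out in Fcgr4, their r was 0.95. It was 0.97 at day 4 and 0.996 at day 6. Within Rag1-/- hosts alone it was 0.75, below the 0.84 of Fcgr3 with Fcgr2b, and Fcgr4 with Fcgr2b had 0.32 there. Of 10819 genes compared, Fcer1g ranked 4 in likeness to Fcgr4, the nearest rank among the 10 pairs. Fcgr2b ranked 49 in likeness to Fcgr3 and 503 in likeness to Fcgr4, the farthest, so many genes outside the family lay closer. Fcgr2b was closest to Fcgr3 (r = 0.90, rho = 0.90, permutation p = 1e-05 for each), the gene with which it shares sequence. With Fcgr1 it had r = 0.76 and rho = 0.76 (permutation p = 0.00117 and 8e-05), with Fcgr4 r = 0.79 and rho = 0.75 (permutation p = 0.00024 and 0.00015). Over the 10 pairs the Benjamini-Hochberg adjusted permutation p was at most 0.00117.

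Genes outside the family were named for likeness by Pearson r over the same 27 libraries, as a description. Those nearest to Fcgr4 were Rac2, a GTPase of the phagocyte oxidase, Pycard, the inflammasome adaptor, and Lrrc25, each at r = 0.98. Nearest to Fcer1g were Ucp2, a mitochondrial carrier, Cd52, a leukocyte surface peptide, and Tmem86a, also at 0.98. Fcgr1 was nearest to Slfn2, Ms4a6d and Ms4a6b, at 0.93 to 0.94. Fcgr3 was nearest to Il10rb, a cytokine receptor chain, Skap2, an adaptor of Src kinases, and Spata6, at 0.93 to 0.94. The inhibitory Fcgr2b had Txndc16, Kctd12 and Tifa nearest, at 0.92 to 0.93. Within Rag1-/- hosts alone these had r of 0.93, 0.62 and 0.55, and the genes nearest to Fcgr3 had 0.71 to 0.76. Those nearest to Fcgr1, Fcgr4 and Fcer1g had 0.81 to 0.96 there.

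Downstream of the receptors, 34 signalling genes were read from the same fits, 25 of the activating pathway and 9 that inhibit it. In Rag1-/- hosts 3 of 34 were called, where 22.7% of all genes were. Nckap1l, a regulator of actin in blood cells, rose by 0.56 (SE 0.05, limma adjusted p = 1.91e-05), from 1360.3 ± 64.8 to 2010.4 ± 125 normalized counts (SD, n = 5 each). Csk, the kinase that restrains Src kinases, fell by 0.24 (SE 0.05, limma adjusted p = 0.00565). Prkcd, a protein kinase C, fell by 0.16 (SE 0.05, limma adjusted p = 0.0379). The median was -0.09 for the activating and -0.02 for the inhibitory genes, against -0.00347 over all genes. The tumour cells themselves express part of this list, since 20 of 34 passed the level filter in culture.

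In culture 0 of those 20 were called by limma, against 0.327% of all genes, with 6 at an unadjusted p under 0.05, against 18.8%. DESeq2 called 4, and 8.89% of all genes. Leaving out DDR1 WT replicate 1, the parental cells, gave 6 calls, and over all 11736 genes then tested 905 calls higher and 750 lower. Ptpn6, the SHP-1 phosphatase, had the smallest p among the inhibitory genes, at -2.05 (SE 0.54, limma adjusted p = 0.111). Nckap1l differed by 1.23 in culture (SE 0.34, limma adjusted p = 0.126), the same sign as in Rag1-/- tumours. At day 4 the 34 genes had 0 calls and 3 unadjusted p under 0.05, against 0.0354% and 15% of all genes. At day 6 they had 0 of either, against 0% and 8.6% of all genes. At day 4 Cblb, a ubiquitin ligase that dampens receptor signalling, had a difference of -0.57 (limma adjusted p = 0.272). At day 6 Dok1, an inhibitory adaptor, stood at 0.39 (limma adjusted p = 0.517).

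Other Fc receptors were followed as a list of 12. Fcgrt, the neonatal receptor that salvages IgG inside cells, lies at chr7:45092990-45103851 (minus strand) and overlaps the antisense gene Gm45669. It was the 1 member called of 6 tested in Rag1-/- hosts, where 22.7% of all genes were called. It stood at 102, 89.98, 90.9, 85.0 and 86.0 RPM in DDR1 WT and 54.5, 67.7, 60.2, 62.7 and 83.3 RPM in DDR1 KO tumours. Every DDR1 KO tumour lay below every DDR1 WT tumour, and the groups failed to overlap, in either direction, for 15% of all genes of that table. Fcgrt fell by 0.51 (SE 0.09, limma adjusted p = 0.00188). In culture the same direction was seen without a limma call, from 33.0, 41.2 and 56.0 RPM to 12.8 and 22.6 RPM. That difference was -1.29 (SE 0.30, limma adjusted p = 0.0884), with a DESeq2 adjusted p of 0.00104 and 2.22e-07 in the authors' deposited table. The sample labels used here name no derivative for the DDR1 KO tumours. Loss of Ddr1 and other traits of the derivatives cannot be told apart in these differences.

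Unlike the gamma receptors, Fcgrt was thus well read in cultured E0771 cells. Its day 4 difference was 0.17 (interval -0.95 to 1.29), and the day 4 minus Rag1-/- difference of effects was 0.68 (SE 0.52, limma adjusted p = 0.472). At day 6 it stood at 49.97 to 72.6 RPM with IgG and 66.1 to 176 RPM with the antibody, a difference of 0.73 (SE 0.30) that was not called (limma adjusted p = 0.517). Trim21, a receptor for antibody in the cytosol, differed by -0.62 at day 6 (SE 0.18), also not called (limma adjusted p = 0.517). In culture Fcer2a, which encodes the low-affinity IgE receptor, was called, with a difference of -5.24 (SE 0.59, limma adjusted p = 0.0285). It was the 1 called of 3 tested among the 12 genes of this list, against 0.327% of all genes. Its level went from 52.3 ± 7.07 (SD, n = 3) in DDR1 WT to 0.482 ± 0.682 (n = 2) normalized counts in DDR1 KO libraries. The DDR1 WT libraries alone thus carried Fcer2a past the level filter, under which the untested genes of the list fell. The share of 1 in 3 therefore cannot be read as a property of the list. No gene of this list was called at day 4 or day 6, where 0.0354% and 0% of all genes were.

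**Figure D5:**
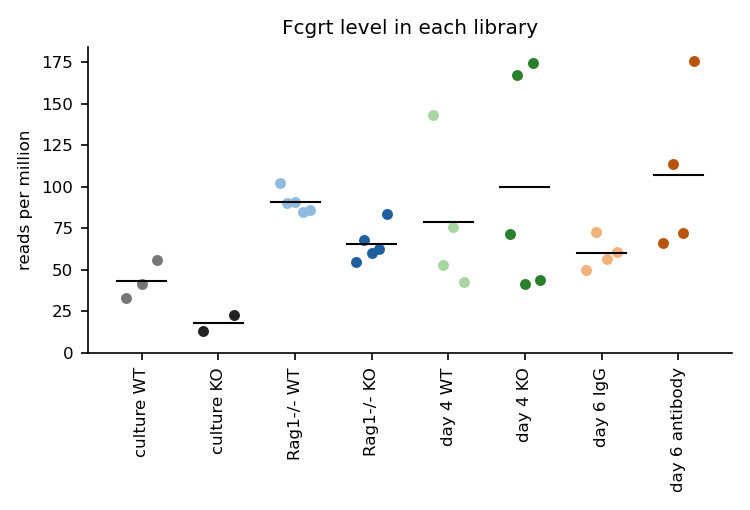
RPM of Fcgrt in each library of the 8 groups, with a bar at each group mean. In Rag1-/- hosts the DDR1 KO tumours, 54.5 to 83.3 RPM, lie below the DDR1 WT tumours, 85.0 to 102 RPM, and at day 4 the groups overlap.

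A list drawn around the gamma chain and the related adaptor DAP12, with Clec4n, Trem2 and the DAP12 gene Tyrobp, gave 0 calls in every comparison. The list is loose, and not every member uses either chain. In Rag1-/- hosts 9 of its genes were tested, where 22.7% of all genes were called, and in the other tables at most 0.327% were. Of 8 genes of C1q and complement receptors tested in Rag1-/- hosts, 1 was called, against the same 22.7%, and it was the integrin chain Itgb2, which fell by 0.32 (SE 0.09, limma adjusted p = 0.0166). Of the interferon gamma response genes 12 were tested there, and 1 was called higher and 1 lower, with 8 below 0 and a median of -0.10. Irf8, a factor of myeloid cells, was the gene that rose, by 0.49 (SE 0.07, limma adjusted p = 0.000487). Among the 14 macrophage and monocyte markers in Rag1-/- hosts, the mannose receptor Mrc1 rose by 0.64 (SE 0.13, limma adjusted p = 0.00399). Ly6c2, a mark of inflammatory monocytes, fell by 0.65 (SE 0.20, limma adjusted p = 0.0315). The other 12 were not called, and the median of the 14 was 0.04.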

How the data were processed

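RNA of 32 libraries in 8 groups was sequenced after TruSeq stranded mRNA preparation, per the labels' protocols. CASAVA, TopHat, DESeq2 and mm10 are named in the submitters' processing notes. The sources used here give no counter or annotation. The deposited values are of the signal kind, read counts that the authors divided by a factor per library, and 18 other columns, the authors' means and folds, were left unused. Dividing by each library's step gave whole reads within 0.01 for 100% of values, from which depth and RPM were computed. Of the authors' deposited adjusted p-values, 1 is quoted. Groups came from titles and characteristics.

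Each table was tested alone with limma 3.58.1 (R 4.3.3, trend, two-sided, mean of 10 or more, Benjamini-Hochberg), on log2(normalized count + 1), and the procedure was tested on simulated data. Lengths are exon bases of RefSeq-paired GENCODE transcripts. Members and lists were chosen with earlier results of these data known. All 5 members were named, with the 3 genes most like each member. The rule for other lists took up to 4 called genes, or the 2 of smallest p where none was called. Not all genes that this rule took are printed. Of 11 immunoglobulin genes listed, 1 had a row, and it was not used. Settings also tried were a replicate block, each library left out, DESeq2 1.42.0 and edgeR 4.0.16 on the recovered reads, limma without trend, quantile and upper-quartile scaling, a filter of 50 or none, and pseudocounts of 5 and 0.5. Array weights and other transcript lengths were added after seeing the data. A result for 1 other gene of the interferon gamma list is not reported here.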

Additional observations from a re-analysis of the deposited data

How the results depend on the processing

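None of the 5 genes was called in any comparison under any alternative except Fcgr3 in Rag1-/- hosts, so the count there ranged from 0 to 1 when libraries were left out in turn. Its difference without DDR1 KO replicate 1 was 0.30. Signalling genes called in culture numbered 0 with limma, 4 with DESeq2 and 6 with array weights, and 0 to 6 when libraries were left out. Calls over all 11911 genes moved alike, from 2 higher and 37 lower with limma to 483 and 576 with DESeq2 and 748 and 706 with array weights. Uncalled differences changed sign under some settings, for Fcgr4 in 7 of 19 alternatives at day 6 and 8 of 30 between hosts. In RPM and in the deposited values alike, 5 of 5 genes had their highest median at day 6. With exon bases of all transcripts, the median Fcgr4 to Fcgr3 ratio was 0.363 and 0.356 at day 4 against 1.03 to 1.92 elsewhere. Same-numbered libraries correlated at -0.204 to 0.446. At day 6, numbers 1 and 4 matched best with their own number (0.446 and 0.346), while numbers 2 and 3 did not (-0.198 and -0.195). The sources used here do not say whether the numbers pair the samples, so pairing is not settled. The replicate block gave 0 calls among the 5 genes in each tumour table and 3 signalling genes in Rag1-/- hosts. No paired analysis was possible in culture because its groups share no number in the labels. The intervals at day 4 and day 6 limit what these groups of 4 and 5 can show.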
